A study of Mus musculus with 16 samples.

Results

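The 10 genes described here, *Celf1*, *Celf2*, *Ptbp1*, *Ptbp2*, *Ptbp3*, *Nova1*, *Rbfox2*, *Msi1*, *Msi2* and *Qk*, code for RNA-binding proteins that regulate splicing, translation or stability of transcripts in the neural lineage. They were chosen by symbol from the 30386 genes of the expression table, and each symbol matched 1 row. All 10 passed the filter on low values, which kept 12533 genes with more than 1 CPM (read counts scaled to a fixed library total) in at least 4 of 16 samples.

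Such proteins recognise short sequence elements in pre-mRNAs, and the place where they bind relative to an exon often decides whether the exon is kept or skipped. The polypyrimidine tract-binding proteins *Ptbp1* and *Ptbp2* are best known for their exchange during neurogenesis, in which *Ptbp1* predominates in dividing progenitors and *Ptbp2* in young neurons. The Musashi proteins are classical markers of neural stem cells and control the translation of their target mRNAs, whereas Quaking, the product of *Qk*, is best known for its functions in glial cells and myelination.

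The samples were 16 neurosphere cultures of neural stem/progenitor cells (NSPCs) that derived from the subventricular zone of 3-month-old mice, and the question was which transcripts differ when the homeobox gene *Dbx2* is expressed from a constitutive transgene. *Dbx2*-NSPCs (n = 8) carried a *Dbx2* transgene and *GFP*-NSPCs (n = 8) a control *GFP* transgene. Both kinds of line had been transfected and then selected and kept in puromycin, and both were grown as bulk cultures with EGF and FGF2 in non-adherent conditions, so that selection and growth factors were common to all groups. The labels do not give the passage of a culture. According to the methods of the study, 2 pairs of lines from independent derivations were used, but the labels give only the transgene and a number from 1 to 8 and do not assign a line. The cultures numbered 1 to 4 and those numbered 5 to 8 were therefore also compared separately, without calling either set a line.

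RNA was measured with 3' tag sequencing, in which each read marks the end of a polyadenylated transcript. The values give the abundance of each gene's RNA and hold no information on the inclusion of an exon, and in bulk RNA fewer cells of a kind and less RNA per cell cannot be told apart. The libraries held 1804660 to 3260284 reads in *GFP*-NSPCs and 2215074 to 3294873 in *Dbx2*-NSPCs. The lowest count of any of the 10 genes in any culture was 43 reads, for *Msi1*. *Dbx2* itself averaged 77.2 ± 51.8 CPM with the *GFP* transgene and 155 ± 35.4 CPM with the *Dbx2* transgene (SD, n = 8 each; log2 fold change 1.26, SE 0.317, limma adjusted p = 0.00978). It overlapped between the transgenes in the cultures numbered 1 to 4 (89.3 to 171 CPM against 136 to 232 CPM) and was separate in those numbered 5 to 8 (30.7 to 39.5 CPM against 114 to 155 CPM). Whether reads of the transgene's own transcript are counted on *Dbx2* is not given in the sources used here. Markers of neural stem and progenitor cells were expressed as the labels imply, with all 8 of 8 tested, a summed level of 5943 to 7387 CPM in *GFP*-NSPCs and 4801 to 6221 CPM in *Dbx2*-NSPCs. None of 5 microglial markers and 1 of 4 endothelial markers passed the filter. Of 6 markers of neuroblasts and neurons, *Stmn2* was at 0 in all 16 cultures and the 5 others passed the filter. Their summed level was 837 to 1293 CPM in *GFP*-NSPCs and 705 to 898 CPM in *Dbx2*-NSPCs.

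Over all cultures, 4 of the 10 genes fell in *Dbx2*-NSPCs, namely *Celf2*, *Ptbp3*, *Msi1* and *Qk*, and 0 of 10 rose. Over all 12533 tested genes, 15.8% passed the same test in either direction, 7.78% of them lower and 8.03% higher. At an unadjusted p under 0.05, 5 of the 10 were lower, with *Ptbp1* as the addition, and 0 higher, against 3654 of all 12533 tested genes in either direction. On the recovered reads, edgeR and DESeq2 also called 0 higher. With the culture number as a block, 5 of the 10 were lower and 1 higher, in a fit that called 21.7% of all tested genes. The additions were *Ptbp1* and *Rbfox2*. *Rbfox2* was also called higher with the number set as a covariate in limma and in edgeR (adjusted p 0.00857 to 0.0115 over the 3 fits). *Ptbp1* was called lower in the same 3 fits. These covariate fits called 24.2% and 23.5% of all tested genes. The log2 fold change was below 0 for 9 of the 10 genes, as it was for 52.7% of all tested genes, and its median was -0.18 against -0.02 over all tested genes. The summed level of the 10 genes was 2227 to 2545 CPM in *GFP*-NSPCs and 1847 to 2044 CPM in *Dbx2*-NSPCs, without overlap. *Celf2* and *Qk* weighed most in this sum, with mean levels of 494 and 769 CPM in *GFP*-NSPCs against 267 and 642 CPM in *Dbx2*-NSPCs. Sums of other genes of like level were not compared. Mitochondrial transcripts took more of the reads in *Dbx2*-NSPCs (4.17% to 8.17%, median 6.60%) than in *GFP*-NSPCs (3.19% to 6.96%, median 3.84%), in the *Dbx2*-NSPC culture of 8 of 8 numbers. Their shares did not overlap in numbers 5 to 8 (5.93% to 6.94% against 3.30% to 4.81%), and their part in the differences of the 10 genes was not tested. These fold changes are differences of means on the log2(CPM + 0.5) scale, *Dbx2*-NSPCs minus *GFP*-NSPCs, tested with limma across all tested genes and called at a Benjamini-Hochberg adjusted p under 0.05. The calls for *Ptbp3* and *Qk* depended on single libraries: the count of lower genes was 2 without the *GFP*-NSPC culture 2, 4 or 6 or the *Dbx2*-NSPC culture 5 or 6.

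**Figure D1:**
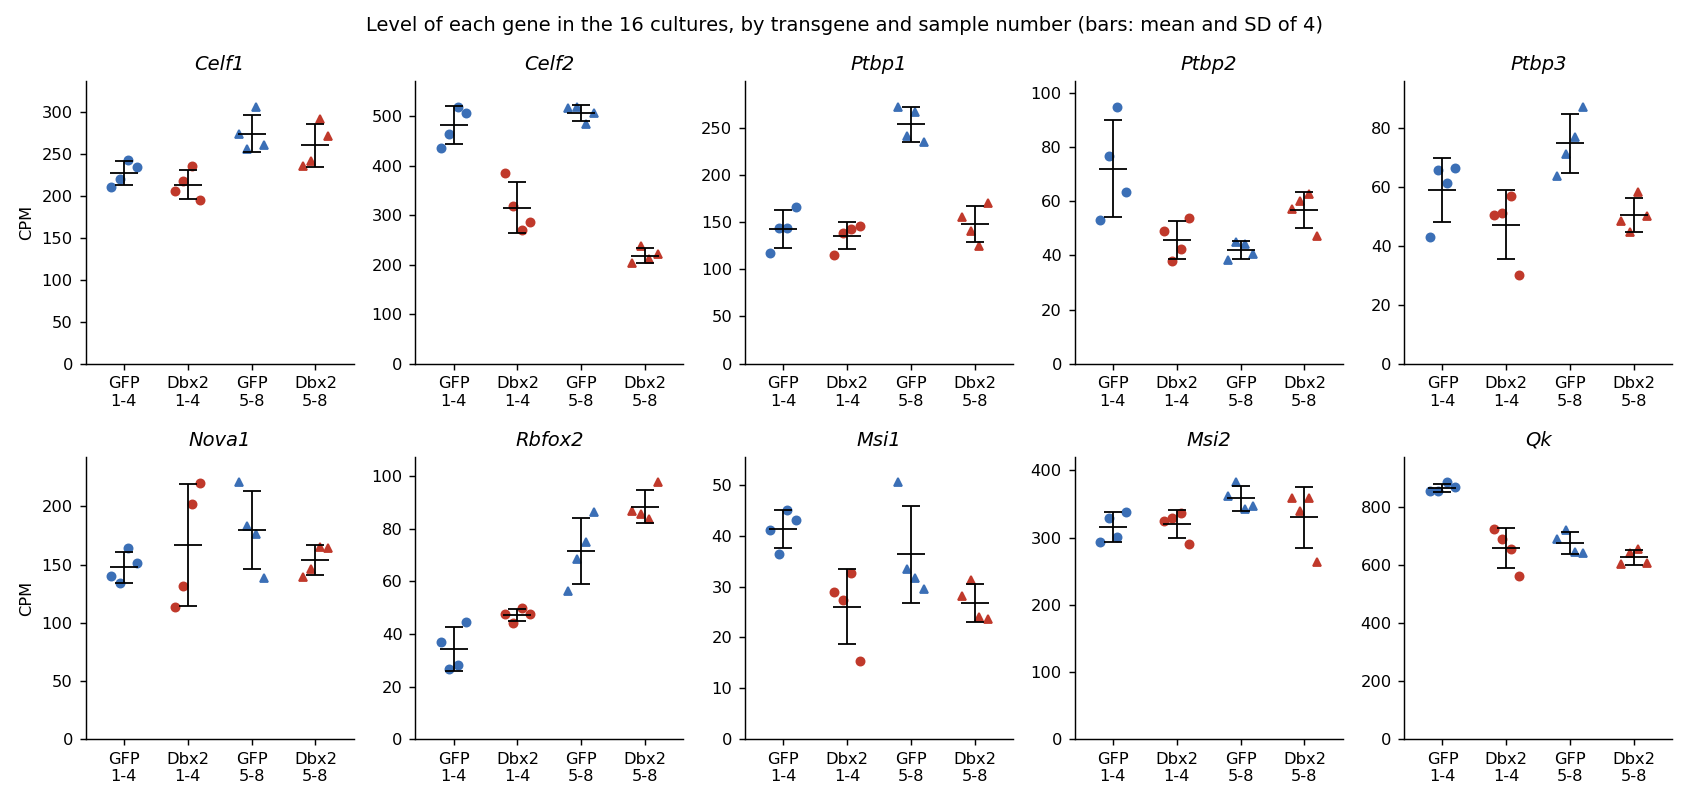
Level of each of the 10 genes in CPM (vertical axes from 0) in the 16 cultures, by transgene and number set on the horizontal axes; circles are cultures numbered 1 to 4, triangles those numbered 5 to 8, blue is *GFP* and red is *Dbx2*, and bars give the mean and SD of 4 cultures. *Celf2* is the gene whose *Dbx2*-NSPCs, at 203 to 387 CPM, all sit below all *GFP*-NSPCs, at 436 to 520 CPM.

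*Celf2* (ENSMUSG00000002107, chr2:6539694-7509563, minus strand, GRCm38) showed the largest difference of the 10 genes. It belongs with *Celf1* to the CUG-BP and ELAV-like family, whose members bind GU-rich elements and regulate splicing in the nucleus and decay or translation in the cytoplasm. In *GFP*-NSPCs numbered 1 to 4 it stood at 436, 465, 518 and 508 CPM, and in those numbered 5 to 8 at 517, 520, 485 and 506 CPM. In *Dbx2*-NSPCs the values were 387, 318, 271 and 286 CPM for numbers 1 to 4 and 203, 237, 212 and 221 CPM for numbers 5 to 8. All 8 *Dbx2*-NSPC cultures were thus below the lowest *GFP*-NSPC culture, and the lowest 4 were the cultures numbered 5 to 8. The same absence of overlap, with *Dbx2*-NSPCs lower, was found for 1.81% of all tested genes. The mean of *Celf2* went from 494 ± 30.2 down to 267 ± 62.7 CPM (SD, n = 8 each), a 1.89-fold decrease (log2 fold change -0.92, SE 0.112, limma adjusted p = 1.29e-05).

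The fall in *Celf2* was present in both sets of cultures and was larger in the cultures numbered 5 to 8. Its log2 fold change was -0.62 (SE 0.0992, limma adjusted p = 5.63e-05) in numbers 1 to 4 and -1.22 (SE 0.0992, limma adjusted p = 1.32e-09) in numbers 5 to 8. The difference of the effect between the sets was -0.59 (SE 0.14, limma adjusted p = 0.00581), in a contrast that called 9.44% of all tested genes. Among *GFP*-NSPCs alone, *Celf2* did not pass the test between the sets (difference 0.08, 95% interval -0.13 to 0.28, limma adjusted p = 0.62). In that group *Dbx2* differed by -1.77 on the log2 scale in the cultures numbered 5 to 8 (reads on *Dbx2*: 120 ± 35.6 CPM in numbers 1 to 4 against 33.97 ± 3.96 CPM, SD, n = 4 each). Among *Dbx2*-NSPCs, *Celf2* was lower in the cultures numbered 5 to 8 by a log2 difference of -0.52 (limma adjusted p = 0.000514). *Dbx2* did not pass the test between these sets (-0.33, limma adjusted p = 0.187). The relation of *Celf2* to the reads on *Dbx2* was not tested.

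**Figure D2:**
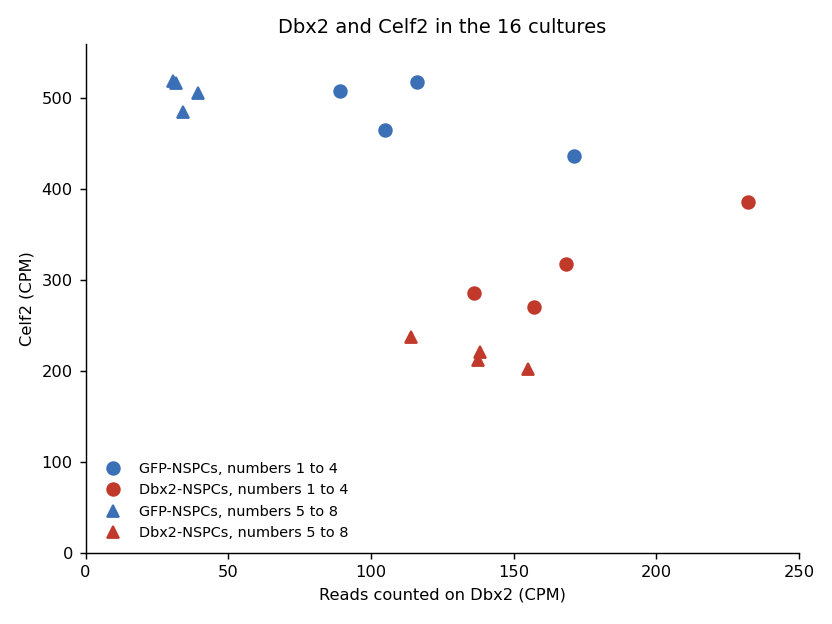
Reads counted on *Dbx2* (horizontal axis, CPM) and level of *Celf2* (vertical axis, CPM) in each of the 16 cultures, coloured by transgene and shaped by number set. The 4 groups form separate clusters, and the relation of *Celf2* to the reads on *Dbx2* was not tested.

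The RefSeq promoter table (GRCm38.p6, 250 bases before to 50 bases after each start) held windows for 7 of the 10 genes and 5 for *Celf2*, which spans 969870 bases and starts at several promoters. The windows were searched on both strands for the homeodomain core TAAT, whose reverse complement is ATTA, because the transgene codes for a homeodomain factor. It was present in 4 of the 5 *Celf2* windows and in 1 window of *Nova1*, and in none of the windows of *Celf1*, *Ptbp1*, *Ptbp2*, *Msi2* and *Qk*, whereas 58.03% of all 32851 windows hold it and 11.6% hold 4 or more copies. The *Celf2* window with 4 copies and the one with none are shown because the tag counts do not tell which promoter the *Celf2* reads came from, with each copy in capitals:
Celf2, chr2:7395951-7396250, minus strand: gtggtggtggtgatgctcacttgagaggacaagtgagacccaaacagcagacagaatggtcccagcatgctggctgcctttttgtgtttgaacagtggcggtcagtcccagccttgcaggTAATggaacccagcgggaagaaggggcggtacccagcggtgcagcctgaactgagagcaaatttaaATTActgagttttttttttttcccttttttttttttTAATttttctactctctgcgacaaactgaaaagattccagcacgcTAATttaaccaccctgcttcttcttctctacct
Celf2, chr2:6871986-6872285, minus strand: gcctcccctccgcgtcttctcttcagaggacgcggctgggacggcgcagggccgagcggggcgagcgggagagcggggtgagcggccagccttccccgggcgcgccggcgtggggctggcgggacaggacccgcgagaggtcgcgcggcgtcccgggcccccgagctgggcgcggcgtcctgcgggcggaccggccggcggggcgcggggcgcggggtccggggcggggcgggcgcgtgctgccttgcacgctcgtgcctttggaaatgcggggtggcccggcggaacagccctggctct
The first window had a GC content of 46.3% and the other of 80.3%, against a median of 52.7% over all windows. A match of these letters describes the sequence only.

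*Celf1* (ENSMUSG00000005506, chr2:90940382-91019497, plus strand) did not pass the test between the transgenes. It ranged from 211 to 307 CPM in *GFP*-NSPCs (median 250) and from 195 to 292 CPM in *Dbx2*-NSPCs (median 236), with a log2 fold change of -0.08 (95% interval -0.28 to 0.11, limma adjusted p = 0.597). The groups overlapped over most of their ranges. Between the number sets *Celf1* was higher in numbers 5 to 8 in both groups, by 0.27 in *GFP*-NSPCs (limma adjusted p = 0.0329) and by 0.28 in *Dbx2*-NSPCs (limma adjusted p = 0.0393) on the log2 scale. The first of these calls was lost without any one of *GFP*-NSPC 1, 2, 5 or 7 (limma adjusted p 0.0589 to 0.125) and the other without any one of *Dbx2*-NSPC 1, 2, 4, 7 or 8 (limma adjusted p 0.0586 to 0.149). Both were also lost with eBayes without trend and in edgeR, and that in *Dbx2*-NSPCs with both other scalings too (adjusted p 0.0543 to 0.0713 in *GFP*-NSPCs and 0.0588 to 0.0861 in *Dbx2*-NSPCs).

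The 3 polypyrimidine tract-binding proteins are regulators that mostly repress exons, and *Ptbp1* and *Ptbp2* each contain a short alternative exon whose skipping shifts the reading frame. In the annotation used (GENCODE M21), the exon is 34 bases long in both genes. It lies at chr10:79862014-79862047 (plus strand) in *Ptbp1*, where 3 of the 4 transcripts with it are protein coding and the 2 that skip it are marked for nonsense-mediated decay. It lies at chr3:119724612-119724645 (minus strand) in *Ptbp2*, where the 3 transcripts with it are protein coding and the 2 that skip it are marked in the same way. The sequences are shown because the cross-regulation of the paralogues, in which *Ptbp1* promotes skipping in *Ptbp2*, acts on this exon. Capitals mark the 8 positions at which the genes differ, and 26 are identical:
Ptbp1 exon: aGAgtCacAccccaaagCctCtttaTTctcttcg
Ptbp2 exon: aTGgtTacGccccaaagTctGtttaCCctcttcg
Both exons hold 22 pyrimidines. The tag counts do not measure their inclusion.

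*Ptbp1* (ENSMUSG00000006498, chr10:79854427-79864771, plus strand) differed between the transgenes in one set of cultures and not in the other. In *GFP*-NSPCs it stood at 117, 143, 144 and 166 CPM in numbers 1 to 4 and at 272, 241, 266 and 234 CPM in numbers 5 to 8. In *Dbx2*-NSPCs the values were 115, 138, 143 and 146 CPM in numbers 1 to 4 and 156, 141, 125 and 170 CPM in numbers 5 to 8. The *GFP*-NSPCs numbered 5 to 8 thus stood apart, while the other 12 cultures shared 1 range from 115 to 170 CPM. In numbers 5 to 8, *Ptbp1* fell 1.72-fold with no overlap between the groups (log2 fold change -0.78, SE 0.115, limma adjusted p = 1.41e-05). Of all tested genes, 20.7% were called there, 10.2% lower, and 12.6% were lower without overlap. In numbers 1 to 4 the log2 fold change was -0.07 (95% interval -0.30 to 0.17, limma adjusted p = 0.741). The effect differed between the sets by -0.72 (SE 0.162, limma adjusted p = 0.00423).

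With all cultures together, *Ptbp1* averaged 198 ± 61.9 CPM with the *GFP* transgene against 142 ± 17.0 CPM with the *Dbx2* transgene (SD, n = 8 each) and missed the threshold (log2 fold change -0.42, limma adjusted p = 0.0804). With the culture number as a block it passed (log2 fold change -0.42, limma adjusted p = 0.0246). It passed as well in DESeq2 and with the number set as a covariate in limma and in edgeR. Over these 4 settings the adjusted p was 0.00868 to 0.0349. Without the *GFP*-NSPC culture 1 it also passed (log2 fold change -0.52, limma adjusted p = 0.0172). The last exon of *Ptbp1* is overlapped on the opposite strand by *Plppr3*, which did not exceed 3.17 CPM in any culture.

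*Ptbp2* (ENSMUSG00000028134, chr3:119718742-119784466, minus strand), the neuronal paralogue, moved in opposite directions in the 2 sets of cultures. In *GFP*-NSPCs it stood at 53.2, 76.5, 94.8 and 63.3 CPM in numbers 1 to 4 and at 38.2, 45.1, 44.1 and 40.3 CPM in numbers 5 to 8. In *Dbx2*-NSPCs the values were 48.8, 37.9, 42.3 and 53.8 CPM in numbers 1 to 4 and 57.0, 59.95, 62.8 and 47.3 CPM in numbers 5 to 8. In numbers 1 to 4 the groups overlapped by 1 culture each and *Ptbp2* fell (log2 fold change -0.63, SE 0.155, limma adjusted p = 0.00449), in a comparison that called 20.5% of all tested genes. In numbers 5 to 8 all 4 *Dbx2*-NSPC cultures were above all 4 *GFP*-NSPC cultures, as for 12.2% of all tested genes, with a log2 fold change of 0.43 (95% interval 0.11 to 0.75) and a limma adjusted p of 0.051, just beyond the threshold. That value was under the threshold with 6 of 11 other settings, among them both other scalings, edgeR and DESeq2 (adjusted p 0.0184 to 0.0494), and without any one of 5 cultures, *GFP*-NSPC 1 or 3 and *Dbx2*-NSPC 2, 4 or 8 (log2 fold change 0.43 to 0.51, limma adjusted p 0.0296 to 0.0475).

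The effect on *Ptbp2* differed between the sets by 1.06 on the log2 scale (SE 0.219, limma adjusted p = 0.00177), and 6.47% of all tested genes combined a called difference with opposite signs. Over all 16 cultures, these effects left a log2 fold change of -0.10 (95% interval -0.46 to 0.26, limma adjusted p = 0.748).

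Within a culture, the log2 ratio of *Ptbp1* to *Ptbp2* CPM followed the same division. It was 0.60 to 1.39 in *GFP*-NSPCs and 1.23 to 1.85 in *Dbx2*-NSPCs of numbers 1 to 4, and 2.41 to 2.82 in *GFP*-NSPCs and 0.99 to 1.84 in *Dbx2*-NSPCs of numbers 5 to 8. The mean ratio was thus higher by 0.56 with the *Dbx2* transgene in the first set and lower by a log2 difference of -1.21 in the other, where the groups were separate. The *GFP*-NSPCs numbered 5 to 8 were the cultures with the highest ratio, through both more *Ptbp1* and less *Ptbp2* than in the *GFP*-NSPCs numbered 1 to 4 (log2 differences of 0.84, limma adjusted p = 4.10e-06, and -0.74, limma adjusted p = 0.000682). Between the same sets of *Dbx2*-NSPCs, the log2 differences were 0.12 for *Ptbp1* (limma adjusted p = 0.523) and 0.31 for *Ptbp2* (limma adjusted p = 0.176).

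**Figure D3:**
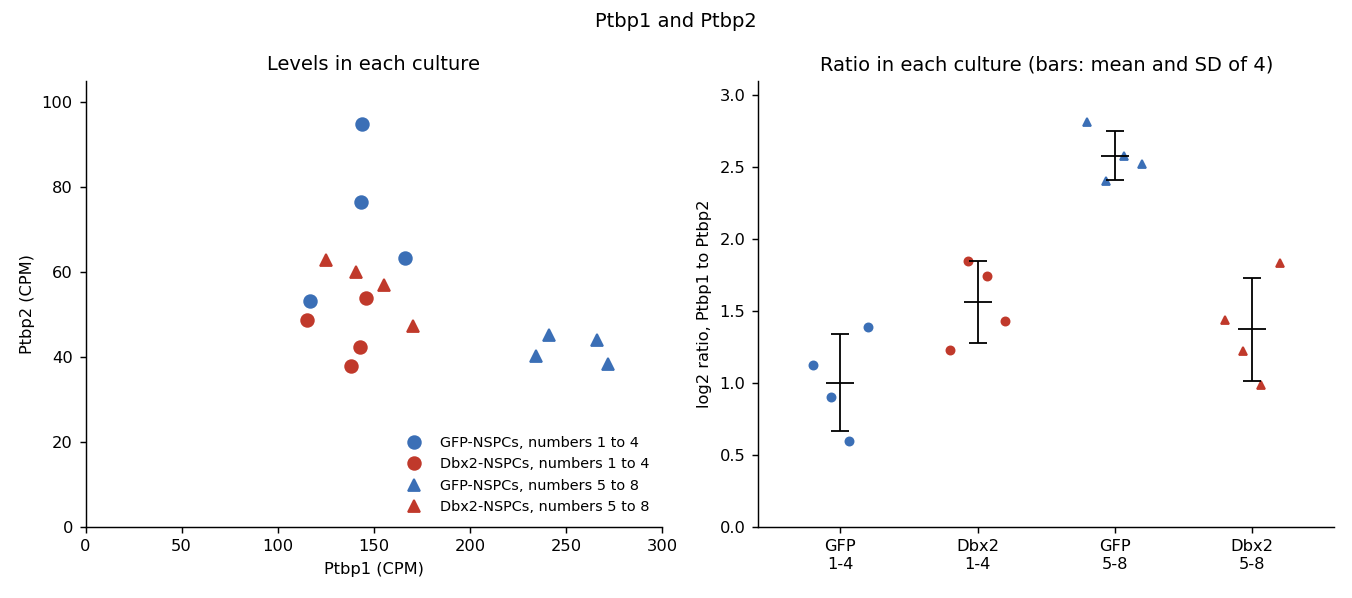
Left, level of *Ptbp1* (horizontal axis, CPM) against that of *Ptbp2* (vertical axis, CPM) in each of the 16 cultures; right, log2 ratio of *Ptbp1* to *Ptbp2* by transgene and number set, with the mean and SD of 4 cultures. The *GFP*-NSPCs numbered 5 to 8 lie apart at 234 to 272 CPM of *Ptbp1* and log2 ratios of 2.41 to 2.82, while the 3 other groups lie between 0.60 and 1.85.

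*Ptbp3* (ENSMUSG00000028382, chr4:59471868-59549364, minus strand), the third paralogue, was lower in *Dbx2*-NSPCs. It ranged from 43.1 to 87.2 CPM in *GFP*-NSPCs (median 66.0) and from 30.1 to 58.2 CPM in *Dbx2*-NSPCs (median 50.2), and the groups overlapped through the *GFP*-NSPC culture 1, the lowest of its group. The log2 fold change was -0.45 (SE 0.14, limma adjusted p = 0.0333) over all cultures, -0.34 (SE 0.17, limma adjusted p = 0.171) in numbers 1 to 4 and -0.56 (SE 0.17, limma adjusted p = 0.0195) in numbers 5 to 8, where the groups did not overlap. No difference of the effect between the sets was detected (-0.22, 95% interval -0.72 to 0.28, limma adjusted p = 0.665). The call over all cultures was lost without any one of 7 cultures, *GFP*-NSPC 2, 4, 6, 7 or 8 and *Dbx2*-NSPC 5 or 6 (log2 fold change -0.45 to -0.39, limma adjusted p 0.0502 to 0.0667), and the one in numbers 5 to 8 without *GFP*-NSPC 8 or *Dbx2*-NSPC 6 (-0.51 to -0.49, limma adjusted p 0.0641 to 0.0714) and with eBayes without trend (limma adjusted p = 0.0577). Without *GFP*-NSPC 1, the fall in numbers 1 to 4 passed as well (-0.48, limma adjusted p = 0.0397).

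*Nova1* (ENSMUSG00000021047, chr12:46694517-46818929, minus strand) codes for a KH-domain protein of neurons that binds clustered YCAY elements. It ranged from 134 to 221 CPM in *GFP*-NSPCs (median 158) and from 114 to 220 CPM in *Dbx2*-NSPCs (median 156), and the groups overlapped over almost their whole ranges. Its log2 fold change was -0.04 (95% interval -0.32 to 0.23, limma adjusted p = 0.87) over all cultures, and neither set passed the test (0.13 and -0.21, limma adjusted p = 0.641 and 0.404). The sign over all cultures was not stable, at 0.000883 in edgeR with the number set as a covariate.

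*Rbfox2* (ENSMUSG00000033565, chr15:77078990-77307004, minus strand), whose product binds UGCAUG elements and is expressed in progenitors as well as in neurons, was the only one of the 10 genes with a positive log2 fold change over all cultures. In *GFP*-NSPCs it stood at 37.1, 26.8, 28.4 and 44.7 CPM in numbers 1 to 4 and at 56.5, 68.4, 75.1 and 86.4 CPM in numbers 5 to 8. In *Dbx2*-NSPCs the values were 47.5, 44.3, 49.8 and 47.7 CPM and then 86.6, 85.7, 83.5 and 97.6 CPM. In each set only the highest *GFP*-NSPC culture reached into the range of the *Dbx2*-NSPCs, while the step between the number sets exceeded the step between the transgenes. The level was higher in numbers 5 to 8 by 1.07 on the log2 scale in *GFP*-NSPCs (limma adjusted p = 4.78e-06) and by 0.89 in *Dbx2*-NSPCs (limma adjusted p = 0.000105).

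Without regard to the number, *Rbfox2* did not pass the test (log2 fold change 0.40, 95% interval -0.12 to 0.92, limma adjusted p = 0.299). With the culture number as a block the same log2 fold change of 0.40 passed (limma adjusted p = 0.0115), so that 1 of the 10 genes was then higher. In numbers 1 to 4 the log2 fold change was 0.49 (SE 0.148, limma adjusted p = 0.0192), a call that was lost without *GFP*-NSPC 2 or 3 or *Dbx2*-NSPC 3 (0.39 to 0.47, limma adjusted p 0.0531 to 0.0891) and when only these 8 cultures were fitted (limma adjusted p = 0.0663). In numbers 5 to 8 it was 0.32 (limma adjusted p = 0.142).

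**Figure D4:**
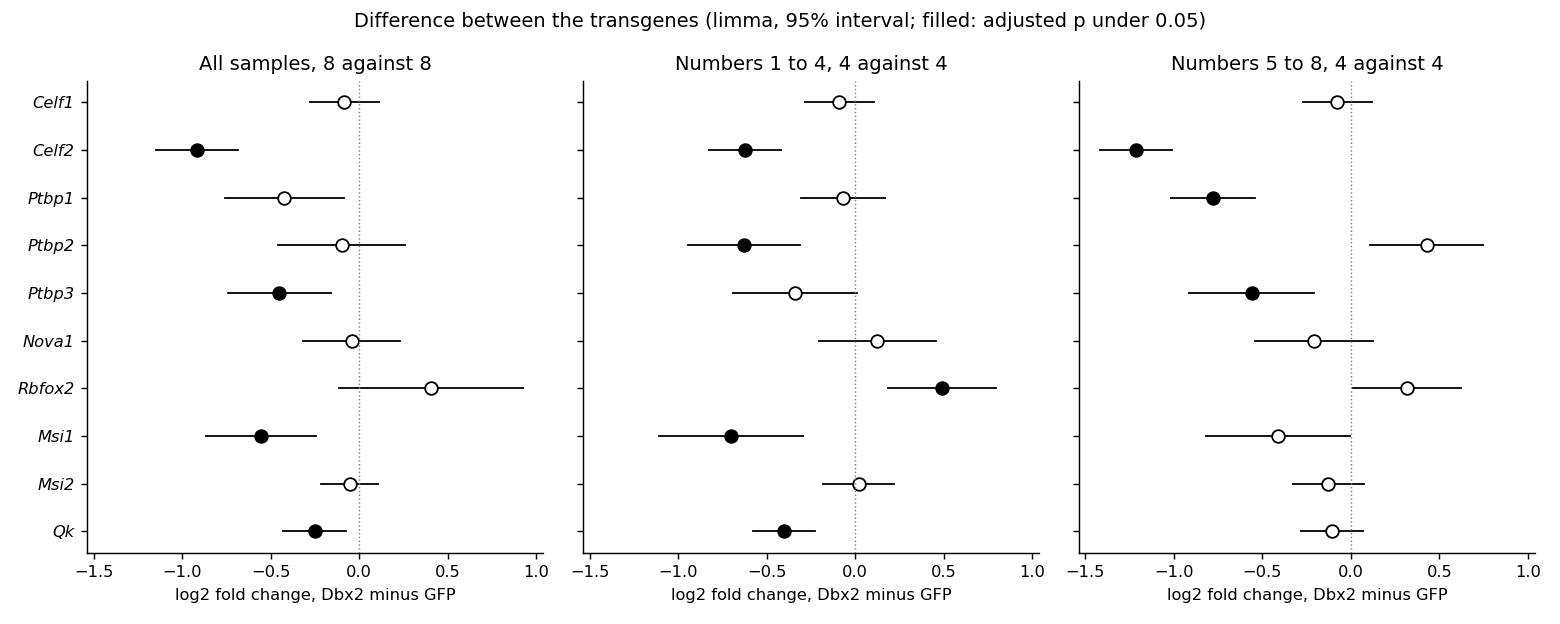
Log2 fold change of the 10 genes (horizontal axes, *Dbx2*-NSPCs minus *GFP*-NSPCs) over all cultures, in numbers 1 to 4 and in numbers 5 to 8, with 95% intervals from limma; filled points have an adjusted p under 0.05. *Celf2* is filled in all 3 panels, and *Ptbp2* lies at -0.63 in the middle panel and at 0.43 in the right one.

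*Msi1* (ENSMUSG00000054256, chr5:115429599-115455698, plus strand) fell and its paralogue *Msi2* did not pass the test. *Msi1* ranged from 29.6 to 50.4 CPM in *GFP*-NSPCs (median 38.7) and from 15.4 to 32.6 CPM in *Dbx2*-NSPCs (median 27.7), and 2 *GFP*-NSPC cultures of numbers 5 to 8 lay within the range of *Dbx2*-NSPCs. The mean was 38.8 ± 7.22 CPM in the first group and 26.4 ± 5.44 CPM in the other (SD, n = 8 each; log2 fold change -0.56, SE 0.149, limma adjusted p = 0.0147). In numbers 1 to 4, where the groups did not overlap (as for 19.6% of all tested genes, in either direction), the log2 fold change was -0.70 (SE 0.198, limma adjusted p = 0.0122), and without *Dbx2*-NSPC 4, at 15.4 CPM the lowest culture, it was -0.47 (limma adjusted p = 0.0514). In numbers 5 to 8 it was -0.41 (limma adjusted p = 0.154), and no difference between the sets was detected (0.29, 95% interval -0.28 to 0.87, limma adjusted p = 0.604).

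*Msi2* (ENSMUSG00000069769, chr11:88339382-88718513, minus strand) averaged 337 ± 29.3 CPM with *GFP* against 325 ± 33.0 CPM with *Dbx2* as the transgene (SD, n = 8 each). Its log2 fold change was -0.05 (95% interval -0.22 to 0.11, limma adjusted p = 0.694), and the groups overlapped in both number sets. The log2 ratio of *Msi1* to *Msi2* within a culture was -3.53 to -2.73 in *GFP*-NSPCs and -4.19 to -3.35 in *Dbx2*-NSPCs, a mean difference of -0.50.

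*Qk* (ENSMUSG00000062078, chr17:10202601-10319854, minus strand) was lower in *Dbx2*-NSPCs by a small step, seen mainly in the cultures numbered 1 to 4. In *GFP*-NSPCs it stood at 854, 853, 883 and 867 CPM in numbers 1 to 4 and at 690, 720, 646 and 639 CPM in numbers 5 to 8. In *Dbx2*-NSPCs the values were 722, 690, 656 and 563 CPM and then 604, 640, 655 and 605 CPM. The *GFP*-NSPCs numbered 1 to 4 lay above the other 12 cultures. In numbers 1 to 4 *Qk* fell with a log2 fold change of -0.40 (SE 0.085, limma adjusted p = 0.00126), and in numbers 5 to 8 it was -0.11 (95% interval -0.28 to 0.07, limma adjusted p = 0.428), a difference between the sets of 0.29 that did not pass the test (limma adjusted p = 0.14). Over all cultures the log2 fold change of -0.25 (SE 0.0848) had a limma adjusted p of 0.049. That call was lost with 6 of 12 other settings, including both other scalings (log2 fold change -0.23 each, limma adjusted p = 0.0816 and 0.0796), and without any one of 12 of the 16 cultures (log2 fold change -0.27 to -0.22, limma adjusted p 0.0525 to 0.0969); it held without *GFP*-NSPC 5, 7 or 8 or *Dbx2*-NSPC 1.

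Within the sets, 4 of the 10 genes fell (*Celf2*, *Ptbp2*, *Msi1* and *Qk*) and 1 rose (*Rbfox2*) in numbers 1 to 4, where 9.85% of all tested genes were lower and 10.6% higher. In numbers 5 to 8, 3 fell (*Celf2*, *Ptbp1* and *Ptbp3*) and 0 rose, where 10.2% of all tested genes were lower and 10.5% higher. At an unadjusted p under 0.05, 4 of the 10 were lower there, with *Msi1* as the addition, and 2 higher, *Ptbp2* and *Rbfox2*. Of all 12533 tested genes, 3995 passed that limit in either direction. There, edgeR and DESeq2 each called 1 higher, *Ptbp2*. *Celf2* was the only one of the 10 called in both sets, as were 7.40% of all tested genes in the same direction. The effect differed between the sets for 3 of the 10, *Celf2*, *Ptbp1* and *Ptbp2*, in a contrast that called 9.44% of all tested genes. Between the sets of *GFP*-NSPCs themselves, *Celf1*, *Ptbp1* and *Rbfox2* were higher and *Ptbp2* and *Qk* lower in numbers 5 to 8, in a contrast that called 28.6% of all tested genes, so the level of 5 of the 10 genes in the control cultures differed by number set. Between the sets of *Dbx2*-NSPCs, *Celf1* and *Rbfox2* were higher and *Celf2* lower in numbers 5 to 8, where 17.5% of all tested genes were called.

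For each of the 4 genes called over all cultures, the gene with the most similar profile was found among 8641 others, by the root mean square difference of centred log2 levels over the 16 cultures. It was *Eea1* for *Celf2* (0.171), *Sf3b5* for *Ptbp3* (0.149), *Zfp770* for *Msi1* (0.160) and *Rhoa* for *Qk* (0.0765), against standard deviations of the 4 genes themselves of 0.51, 0.36, 0.40 and 0.20. The 20 nearest tested genes on the chromosome, 10 on each side, had median log2 fold changes between -0.23 and 0.13 around the 10 genes, and of -0.14 around *Celf2*.

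Among paralogues of the 10 genes, the least similar pair of responses was within the CELF family. *Celf4*, a CELF protein of neurons, rose to 18.2 ± 4.17 CPM from 2.81 ± 1.53 CPM (SD, n = 8 each; log2 fold change 2.59, limma adjusted p = 9.83e-07), with no overlap between the groups, while *Celf2* fell. *Celf5* rose from 10.7 ± 3.34 CPM to 22.8 ± 7.78 CPM (log2 fold change 1.05, limma adjusted p = 0.00437). *Khdrbs3* and *Khdrbs1*, STAR-family relatives of *Qk*, fell by log2 fold changes of -0.73 (limma adjusted p = 9.61e-05) and -0.27 (limma adjusted p = 0.0149), and the fall of *Khdrbs3* was larger in numbers 5 to 8 (difference between the sets -0.63, limma adjusted p = 0.0101). Of 10 paralogues, 9 were tested, 2 rose and 2 fell, where 8.03% of all tested genes were higher and 7.78% lower. *Rbfox3*, the neuronal RBFOX gene also known as NeuN, had opposite signs in the sets (log2 fold change -1.96 and 2.90, difference 4.86, limma adjusted p = 3.90e-06), at low levels of 5.56 and 1.05 CPM in the *GFP*- and *Dbx2*-NSPCs of numbers 1 to 4 and 0.88 and 9.85 CPM in those of numbers 5 to 8. *Khdrbs2* also had a called difference with opposite signs (limma adjusted p = 0.0491), but it rested on 15 and 4 reads summed over the *GFP*- and *Dbx2*-NSPCs of numbers 1 to 4 and on 0 and 15 reads over those of numbers 5 to 8, so no fold is given.

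Of 27 other RNA-binding proteins of the neural lineage, 20 were tested, 6 fell and 1 rose over all cultures, with a median log2 fold change of -0.15. Over all tested genes, 7.78% were lower and 8.03% higher, with a median of -0.02. Within the sets, 4 fell and 1 rose in numbers 1 to 4, where 9.85% of all tested genes were lower and 10.6% higher. In numbers 5 to 8, 5 fell and 3 rose, where 10.2% were lower and 10.5% higher. *Igf2bp2*, which binds and stabilises mRNAs and is expressed in neural progenitors, fell to 15.95 ± 6.84 CPM from 53.1 ± 11.3 CPM (SD, n = 8 each; log2 fold change -1.83, limma adjusted p = 6.84e-05), with no overlap. *Pcbp2*, a poly(C)-binding protein, fell without overlap by a smaller step (331 ± 20.2 to 250 ± 24.9 CPM, SD, n = 8 each; log2 fold change -0.41, limma adjusted p = 0.000486). *Pcbp3* (-0.66, limma adjusted p = 0.0409), *Fmr1* (-0.41, limma adjusted p = 0.0156) and *Elavl1*, the ubiquitous Hu protein (-0.34, limma adjusted p = 0.0285), fell with overlapping groups. The 3 partners of *Ptbp1* in repression, *Raver1*, *Raver2* and *Matr3*, had log2 fold changes of 0.01, -0.03 and -0.10, and none passed the test (limma adjusted p = 0.987, 0.969 and 0.255).

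Of 11 transcripts known as targets of these proteins, 7 were tested, 2 rose and 1 fell, where 8.03% of all tested genes were higher and 7.78% lower. The counts cover their abundance, not their splicing or translation. *Cdkn1a*, a cell cycle inhibitor whose mRNA is a target of Musashi and CELF proteins, rose to 2238 ± 410 CPM from 1193 ± 641 CPM (SD, n = 8 each; log2 fold change 1.14, limma adjusted p = 0.0178). The rise was 1.70 in numbers 1 to 4 (limma adjusted p = 3.39e-06), against 0.57 in numbers 5 to 8, which did not pass (limma adjusted p = 0.0669), and the effect differed between the sets (-1.13, limma adjusted p = 0.0191). *Pkm*, a glycolytic enzyme whose mutually exclusive exons are chosen with *Ptbp1*, rose (log2 fold change 0.49, limma adjusted p = 0.0103), and *Cdkn1b*, another cell cycle inhibitor, fell (-0.44, limma adjusted p = 0.0103). *Flna*, a filamin with an exon under *Ptbp1* control, had a pattern with opposite signs in the sets (0.72 in numbers 1 to 4, limma adjusted p = 0.000321, and -1.06 in numbers 5 to 8, limma adjusted p = 1.53e-06). Its *GFP*-NSPCs were at 76.9 ± 4.62 CPM in numbers 1 to 4 and 264 ± 5.27 CPM in numbers 5 to 8, its *Dbx2*-NSPCs at 131 ± 39.6 and 127 ± 9.91 CPM (SD, n = 4 each). *Numb*, the best known mRNA bound by *Msi1*, was at 6.53 ± 1.59 and 8.15 ± 1.93 CPM (SD, n = 8 each; limma adjusted p = 0.311).

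**Figure D5:**
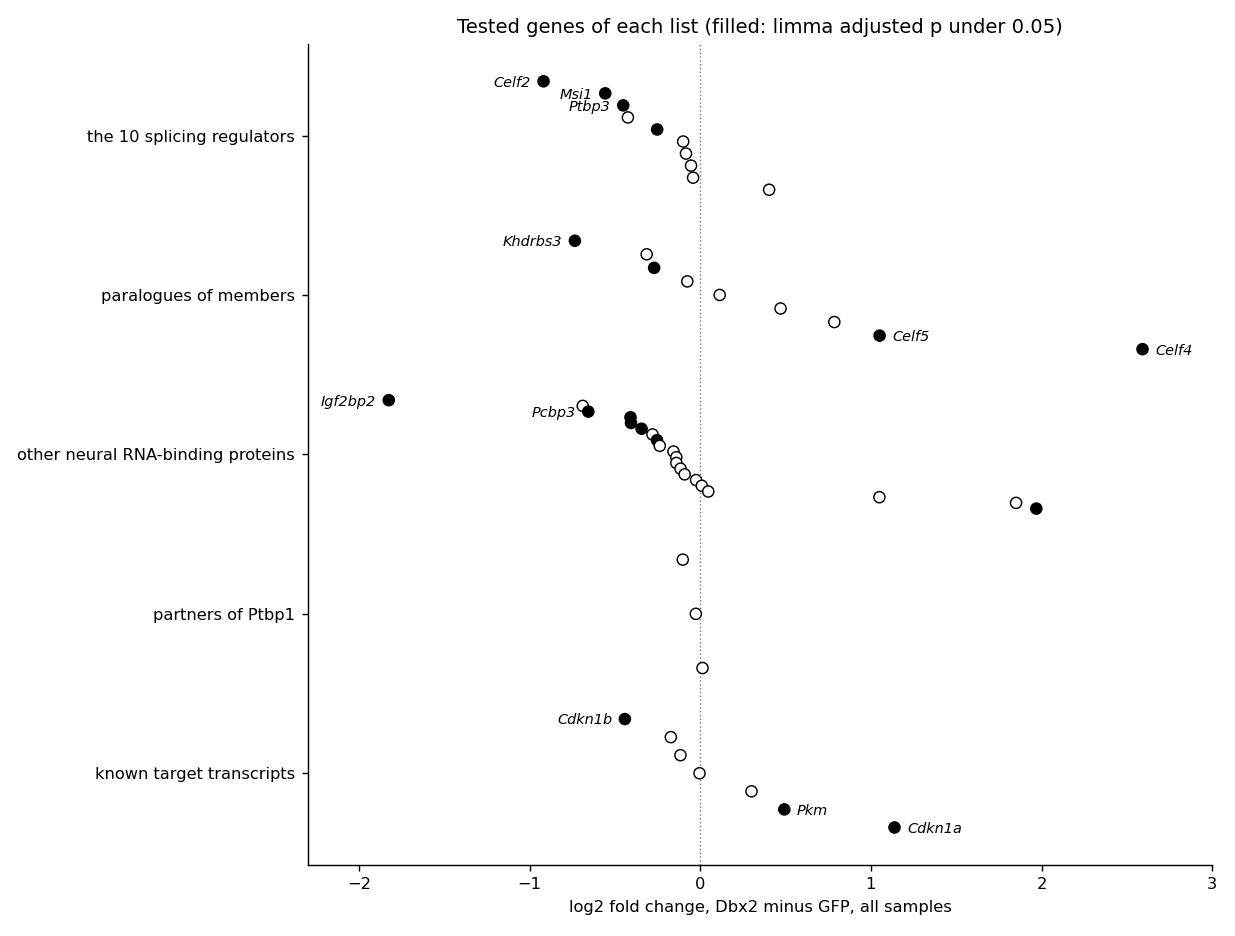
Log2 fold change over all cultures (horizontal axis, *Dbx2*-NSPCs minus *GFP*-NSPCs) of the tested genes of 5 lists, sorted within each list; filled points have a limma adjusted p under 0.05, and filled points past 0.43 are named where the rule for named genes covers them. *Celf4* lies at 2.59 and *Igf2bp2* at -1.83, while the 10 splicing regulators lie between -0.92 and 0.40.

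Some markers of cell types also differed between the transgenes, in a test that called 7.78% of all tested genes lower and 8.03% higher. Of the 8 markers of neural stem and progenitor cells, 3 fell (*Slc1a3*, *Fabp7* and *Egfr*, log2 fold changes -1.03, -0.72 and -0.45) and 0 rose. Of the 4 astrocyte markers, *Gfap* rose (3.31, limma adjusted p = 0.000354) and *Aldh1l1* fell (-1.20, limma adjusted p = 0.000198), with a summed level of 179 to 441 CPM in *GFP*-NSPCs and 120 to 245 CPM in *Dbx2*-NSPCs. Of the 6 markers of neuroblasts and neurons, 5 were tested and *Map2* fell (-0.47, limma adjusted p = 0.00557), and their summed level was 837 to 1293 CPM and 705 to 898 CPM. *Dcx*, the marker of neuroblasts, was at 4.07 and 0.0825 CPM in the *GFP*- and *Dbx2*-NSPCs of numbers 1 to 4. In those of numbers 5 to 8 it was at 0.205 and 4.74 CPM. The lower value of each set was below the 0.911 to 1.66 CPM of 3 reads. The summed level of the 6 markers was lower with the *Dbx2* transgene in both sets. It was 837 to 935 against 705 to 735 CPM in numbers 1 to 4 and 1217 to 1293 against 763 to 898 CPM in numbers 5 to 8. In numbers 1 to 4, 3 of these markers fell and 0 rose, and in numbers 5 to 8, 1 fell and 1 rose. Within each set the means of *Ptbp2* and *Rbfox3* differed in the same direction as *Dcx*, but the group means did not rank in the same order. Of the 6 oligodendrocyte-lineage markers, 4 were tested and none of these passed, with a summed level of 2451 to 3173 CPM and 2277 to 2953 CPM, and *Mog* was at 0 throughout. The part of these markers in the differences of the 10 genes was not tested.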

How the data were processed

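RNA of 16 cultures, 8 *Dbx2*-NSPC and 8 *GFP*-NSPC, had been made into QuantSeq 3' libraries from 100 ng of total RNA each and sequenced as single reads of 101 bases. After trimming with bbduk and alignment to GRCm38 (STAR 2.5.0a, Ensembl release 96), 1 table of CPM values covering 30386 genes was deposited; the counting tool and the strand setting are not given in the sources used here. The deposited CPM of a sample summed to between 999485 and 999614, and every value was a whole multiple of the CPM of 1 read (100% of values within 0.1 of a whole read), so whole reads were recovered for edgeR and DESeq2. Between cultures, 3 reads corresponded to 0.911 to 1.66 CPM, which limits precision for low genes. No 2 samples agreed within sampling noise.

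Genes were kept when at least 4 samples exceeded 1 CPM. On the log2(CPM + 0.5) scale, limma 3.58.1 was run in R 4.3.3 (lmFit and trended eBayes, 2-sided, Benjamini-Hochberg over all 12533 genes, threshold 0.05), over all samples and in a model of 4 means for the sets numbered 1 to 4 and 5 to 8, which share 1 estimate of the spread. The authors fitted the cell line as a covariate; the labels do not give it, so none was fitted here. P-values measure only the spread between these cultures. According to the study, the cultures of each transgene were repeats of 2 lines. The p-values, SEs and SDs therefore do not measure the spread between independently made lines. Within a pair of lines, the transgene and the line cannot be told apart. The members and gene lists were chosen with earlier results of these data known, so no p-value was adjusted over a list alone. Named genes outside the 10 were the 12 with the largest called log2 fold changes among 4 fixed lists whose higher group mean reached 10 CPM, those with a called difference and opposite signs in the sets, the nearest profile of each called member and *Dbx2*; *Numb*, the *Ptbp1* partners and the markers are given as list members. Symbols with several identifiers were represented by the one with the most reads.

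On residuals from the group means, cultures with the same number correlated at 0.152 to 0.303 (mean 0.226). Other numbers of the same set correlated at a mean of 0.199 and at least 0.124. All same-number pairs exceeded 0.1, the rule for pairing. Pairs of other numbers within a set exceeded it too, so the rule could not tell the number from the set. The number, taken from the labels, was fitted as a block. This block was an alternative only, and the main fits behind the calls did not include it. On these residuals 4 of 8 numbers correlated best with their own. With set means also removed, the same-number correlations were -0.00741 to 0.119, with a mean of 0.0403. Alternatives were pseudocounts of 0.1 and 2, 2 other filters, 2 scalings, eBayes without trend, edgeR 4.0.16, DESeq2 1.42.0, the replicate block, the number set as a covariate, each set alone and each sample left out; edgeR with the number set and the contrasts between sets within a transgene were added after the data had been seen. On simulated data of 12533 genes with 200 changed at a log2 fold change of 1, limma recovered 198 with 9 false calls for all samples. These counts do not measure recovery or false calls in the cultures themselves. There, 28.6% of all tested genes were called between the number sets of *GFP*-NSPCs. The fit over all samples leaves that difference in its residual spread. Positions came from GENCODE M21 and promoters from RefSeq, GRCm38.p6. Tables and plots used Python 3.11.15, numpy 2.4.6, pandas 2.3.3 and matplotlib 3.10.9.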

Additional observations from a re-analysis of the deposited data

Results flagged for a closer look

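The effect of the transgene differed between the cultures numbered 5 to 8 and those numbered 1 to 4 for *Celf2* (difference of log2 fold changes -0.59), *Ptbp1* (-0.72) and *Ptbp2* (1.06), each by a test of the difference itself (limma adjusted p = 0.00581, 0.00423 and 0.00177).

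A single culture lay far from the others of its group for 3 genes, among 60 groups examined, and chance flags about 1 in 20 groups. *Dbx2*-NSPC culture 4 was the lowest of 8 for *Ptbp3*, at 30.14 CPM, and for *Msi1*, at 15.43 CPM. *Dbx2*-NSPC culture 8 was the lowest of the 4 *Dbx2*-NSPC cultures numbered 5 to 8 for *Msi2*, at 263.69 CPM.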

How the results depend on the processing

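Over all samples, the count of members called higher was 0 and became 1 (*Rbfox2*) with the replicate block, with the number set as a covariate and in edgeR with that covariate, which was chosen after seeing the data. In numbers 1 to 4 the 1 higher member was lost (0) when only the samples of the set were fitted, and in numbers 5 to 8 the count went from 0 to 1 (*Ptbp2*) with a mean of at least 10 CPM, median-of-ratios scaling, TMM scaling, edgeR, DESeq2 and only the samples of the set. With the replicate block, 1 member was higher and 5 lower over all samples against 0 and 4 without it, through *Rbfox2* and *Ptbp1*, and it changed no other call. The difference between the sets called 3 members under each of its 26 alternatives. Over all tested genes, 1982 were called for all samples, 2723 with the replicate block and 3034 with the number set as a covariate. The cause of these changes was not tested.

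With 1 sample left out in turn, the count of lower members over all samples was 2 to 4, that of higher members 0 to 1 in numbers 1 to 4 and 0 to 1 in numbers 5 to 8. Lower members numbered 3 to 5 in numbers 1 to 4 and 2 to 3 in numbers 5 to 8. Signs turned for log2 fold changes that were near 0 and not called: *Ptbp2* over all samples (-0.17 to 0.0141), *Nova1* over all samples (-0.11 to 0.0242, and 0.000883 in edgeR with the number set), and in numbers 1 to 4 *Ptbp1* (-0.16 to 0.0112), *Nova1* (-0.0256 to 0.29) and *Msi2* (-0.0144 to 0.0663). They also turned for the difference between the sets of *Celf1* (-0.0443 to 0.0656), and between the sets of *Dbx2*-NSPCs for *Ptbp3* (-0.0714 to 0.23), *Nova1* (-0.23 to 0.0832), *Msi1* (-0.15 to 0.20) and *Msi2* (-0.0107 to 0.14). No called log2 fold change of a member turned sign under any alternative. With 43 reads as the lowest count of a member, depth limits single cultures of *Msi1* most.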

Other observations

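*Mir124-2hg*, the host transcript of a copy of miR-124, a neuronal microRNA, was looked up after the data had been seen. It stood at 7.85 to 16.3 CPM in *GFP*-NSPCs and at 1.55 to 7.18 CPM in *Dbx2*-NSPCs, with no overlap between the groups (log2 fold change -1.59, limma adjusted p = 0.000325). It was lower in both number sets (-1.30 in numbers 1 to 4 and -1.88 in numbers 5 to 8). The mature microRNA is not measured by these libraries.

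*Srrm4*, a splicing activator of neuronal microexons, and *Igf2bp3*, an mRNA-binding protein of fetal tissues, were also chosen after their values had been seen. *Srrm4* was at 0 to 1.44 CPM in the *GFP*-NSPCs of both sets and in the *Dbx2*-NSPCs numbered 1 to 4, and at 4.93 to 12.8 CPM in the *Dbx2*-NSPCs numbered 5 to 8 (difference of log2 fold changes between the sets 3.64, limma adjusted p = 0.00108). *Igf2bp3* had the same division, with at most 1.08 CPM in the 12 other cultures and 5.98 to 12.8 CPM in the *Dbx2*-NSPCs numbered 5 to 8 (difference 3.71, limma adjusted p = 0.000105).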
